A study of Mus musculus with 6 samples.

Results

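Expression of *Trim28*, *Trim24*, *Atf7ip*, *Cbx5*, *Uhrf1*, *Morc2a*, *Dnmt3a* and *Pphln1*, which encode the corepressor KAP1 and 7 proteins of the heterochromatin machinery around it, was compared between mouse cells depleted of KAP1 and control cells. The genes were taken by symbol from the platform annotation of the deposited value table. All 8 were found, each through 1 transcript cluster, the set of array probes read as 1 gene. They make up 8 of the 5322 genes named on a table of 6951 transcript clusters. The cells were N2A, an established mouse neuroblastoma line. Both groups received 1.5 µg of shRNA plasmid, either the *Kap1* construct shA or a scrambled control, with 300 ng of the hygromycin resistance plasmid pTK-Hyg. Resistant cells were grown for 7 days in hygromycin, so that both groups are pools of drug-selected cells of a single line and not clones. RNA from 3 samples per group was hybridised to 1 Mouse Gene ST array each, and the comparison asks which transcripts change when KAP1 is depleted. The labels do not say whether the samples of a group were separate transfections, so p-values reflect how far these samples scatter, possibly for technical reasons only, and precision is limited by having 3 arrays a side. In a pooled culture, fewer cells of a type and less RNA per cell cannot be told apart.

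KAP1 is brought to DNA by KRAB zinc finger proteins, though not at all of its sites, and acts as a platform for silencing. It recruits the histone methyltransferase SETDB1, which trimethylates lysine 9 of histone H3, and binds HP1 proteins, which read that mark and compact chromatin. ATF7IP is the partner of SETDB1, and the HUSH complex, with its effector MORC2, spreads and maintains the same mark over transposons and some genes. DNA methylation, laid down by DNMT3A and maintained through UHRF1, often covers the same regions.

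The table as deposited holds only a selected set of transcripts. Every transcript cluster on it passed an adjusted p of 0.05 in this comparison, with a highest adjusted p of 0.0365 (limma, Benjamini-Hochberg), and 100% of them had no overlap between the groups, so neither property is a result about any gene listed there. A gene was therefore called lower or higher only if its fold was also at least 1.4, a log2 change of 0.49 either way. By this rule 17.6% of the transcript clusters on the table were lower after *Kap1* knockdown and 15.0% were higher. Control arrays had median intensities of 505 to 553 and knockdown arrays of 507 to 528. Log2 intensities correlated at 0.996 to 0.998 within groups and at 0.937 to 0.942 between groups. Of 20 neuroblastoma and sympathoadrenal markers 15 were on the table, with 6 called lower and 3 called higher, and their summed intensity was 25493 to 26478 in the control and 23079 to 24285 in the knockdown. Of the markers of other cell types, 1 of 6 for fibroblasts (*Pdgfra*, 107 to 119 in the control and 95 to 96 in the knockdown), 1 of 5 for macrophages (*Cd68*, 132 to 149 and 94 to 102), 1 of 5 for Schwann cells (*Pmp22*, 7523 to 7914 and 5408 to 5680) and 1 of 3 for endothelium (*Pecam1*, 114 to 116 and 143 to 167) were listed. For astrocytes and oligodendrocytes 0 were listed. None of these markers of other cell types passed the fold. The part of any of these cell type markers in the results below was not tested.

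Of the 8 genes, 3 fell after *Kap1* knockdown, none rose, and the other 5 changed by less than the fold required. The genes that fell were *Trim28* itself, to 26.4% of the control, *Morc2a*, to 66.4%, and *Uhrf1*, to 67.3%. Relative to the median of the listed genes on its chromosome *Uhrf1* was no longer called, at a log2 difference of -0.28, which leaves 2 genes. That median comes from the same selected set, so it is not the shift of a whole chromosome. *Cbx5*, *Dnmt3a* and *Pphln1* were measured below the control and *Atf7ip* and *Trim24* above it, without passing. The median log2 fold change of the 8 genes was -0.28, or -0.23 without *Trim28*, and that of the table was 0.17. No transcript cluster lies close to 0 and 48.7% of the table was below the control. The table median therefore falls at the edge of a gap left by the selection, and its distance from -0.28 does not measure a shift. In size the 8 genes were not set apart, as their median absolute change was 0.34 and that of the table was 0.38. The 3 genes called lower of 8 stand beside the 17.6% of the table called the same way, and 1 of these 3 is the gene the shRNA targets.

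**Figure D1:**
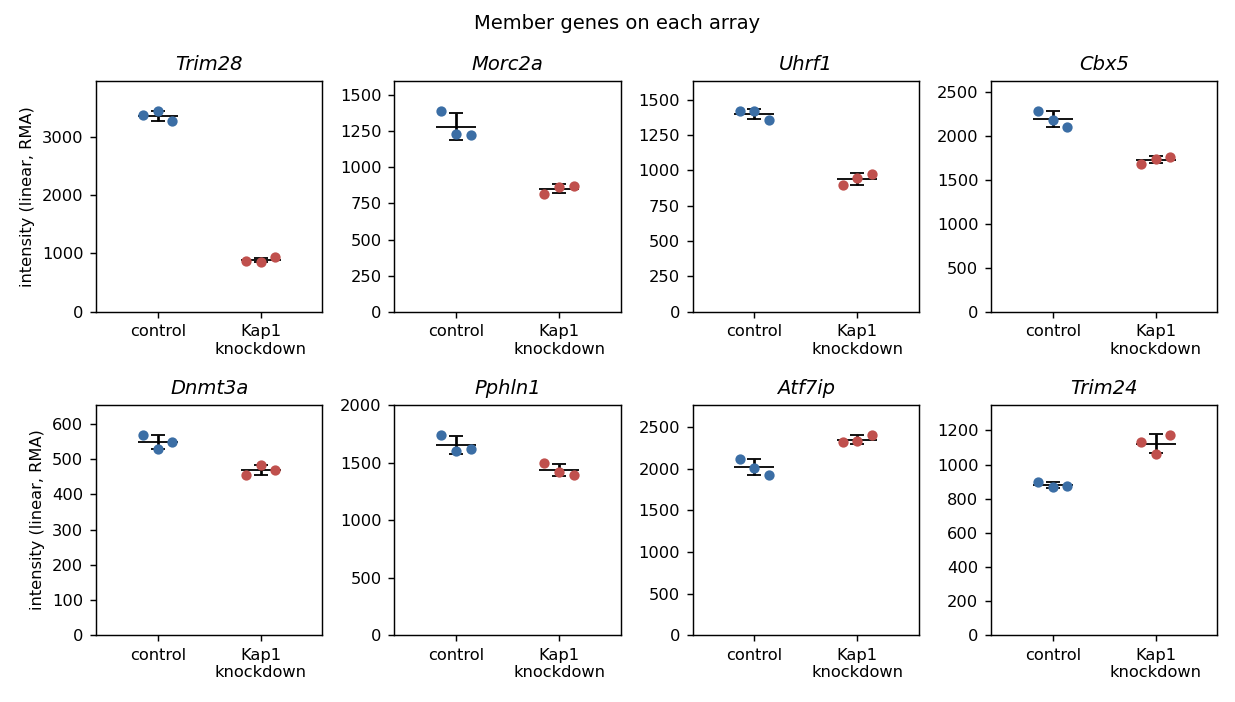
Linear intensity of the 8 genes on each of the 6 arrays (points; blue, control; red, *Kap1* knockdown), with the mean and SD of each group of 3 (bars) and each vertical axis starting at 0. *Trim28* dropped to a mean of 888, and the other genes moved by much smaller amounts.

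**Figure D2:**
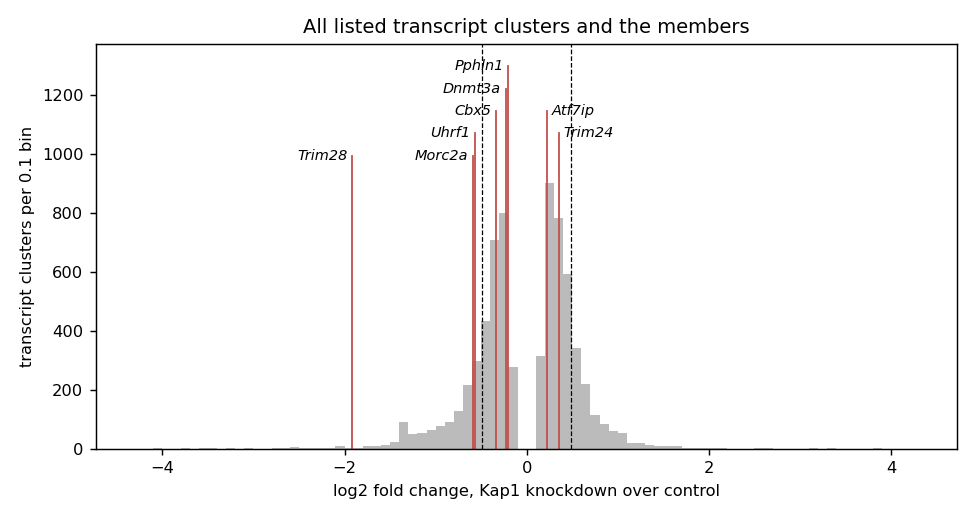
Number of transcript clusters in each 0.1-wide bin of log2 fold change (grey bars) for the whole table, with the 8 genes as red lines and the fold of 1.4 as dashed lines. No transcript cluster lies close to 0, as the table holds a selected set, and 5 of the 8 genes lie inside the dashed lines.

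*Trim28* encodes KAP1, the corepressor itself, and its transcript was read first because it checks the labels. Its intensity was 3377, 3443 and 3267 on the control arrays and 866, 861 and 936 on the knockdown arrays. The 3 knockdown arrays lay close together and far under every control array. The mean fell from 3362 ± 88.9 to 888 ± 41.9 (SD, n = 3), giving a log2 fold change of -1.92 with a standard error of 0.054 and a 95% interval of -2.04 to -1.80 (adjusted p = 1.3e-08, limma). Only 0.676% of the transcript clusters on the table changed by more, and *Trim28* was 48th by size of change. The exact two-sided permutation test over the 6 arrays cannot give a p under 0.1, for this or any other gene.

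The hairpin used for the knockdown is shown because it targets the gene that changed most among the 8, and the scrambled control hairpin is not shown. The sequence is the forward strand of the shA oligonucleotide from the study's oligonucleotide table, 52 bases in length, with both arms in capitals.
shA: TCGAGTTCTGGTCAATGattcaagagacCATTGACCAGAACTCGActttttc
Each arm has 17 bases and the 2 are reverse complements of each other, separated by a loop of 11 bases and followed by the run of T that ends transcription by RNA polymerase III. The place of the arm in the *Trim28* transcript was not analysed here.

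*Trim24* encodes the TIF1 family member closest in name to KAP1, a chromatin reader with a PHD finger and a bromodomain that acts as a cofactor of nuclear receptors. Its intensity was 899, 868 and 876 in the control and 1130, 1062 and 1174 in the knockdown. The control arrays agreed within a few percent, whereas the knockdown arrays spread more widely above them. The mean was 881 ± 16.1 in the control and 1122 ± 56.4 in the knockdown (SD, n = 3), 127% of the control, a log2 difference of 0.35 ± 0.054 (SE; 95% interval 0.23 to 0.47), which is under the required fold. *Trim66*, another TIF1 gene expressed mainly in testis, had a log2 difference of 0.16 (95% interval 0.05 to 0.27), also under it.

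*Atf7ip* encodes the cofactor that keeps SETDB1 in the nucleus and protects it from degradation. It was measured at 2111, 2010 and 1919 in the control and at 2314, 2324 and 2404 in the knockdown. Control replicate 1 was nearest to the knockdown arrays, and the lack of overlap is shared by every transcript cluster on the table. The mean was 2013 ± 96.0 against 2347 ± 49.3 (SD, n = 3), a log2 difference of 0.22 ± 0.054 (SE; 95% interval 0.10 to 0.34). SETDB1 itself and the other histone H3 lysine 9 methyltransferases of the list gave no value, as 0 of 8 were on the table.

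*Cbx5* encodes HP1 alpha, which binds methylated lysine 9 of histone H3 through its chromodomain and KAP1 through its chromoshadow domain. Of the 3 HP1 genes it was the only one on the table. Its intensity was 2287, 2187 and 2109 on the control arrays and 1688, 1745 and 1762 on the knockdown arrays. The groups did not overlap, as was so for every transcript cluster on the table. The mean was 2194 ± 89.2 and 1732 ± 38.8 (SD, n = 3), 78.9% of the control, a log2 difference of -0.34 ± 0.052 (SE; 95% interval -0.46 to -0.22), under the required fold. A larger change was measured for 57.3% of the transcript clusters.

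*Morc2a* encodes the mouse MORC2 protein, an ATPase that compacts chromatin at sites bound by HUSH. It was measured at 1390, 1233 and 1226 in the control and at 816, 866 and 872 in the knockdown. Control replicate 1 was the highest of the 6 arrays, and the other 2 control arrays were almost equal. The mean fell from 1283 ± 92.7 to 851 ± 30.7 (SD, n = 3), giving a log2 fold change of -0.59 with a standard error of 0.063 and a 95% interval of -0.73 to -0.45 (adjusted p = 2.68e-05, limma), which reaches inside the required fold. This call did not depend on that array, because *Morc2a* was called lower when each array was left out in turn. *Morc2b*, its retrocopy in the mouse, was not on the table, and whether the probes of *Morc2a* also read it was not tested.

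*Pphln1* encodes periphilin, a core subunit of HUSH. Its intensity was 1741, 1598 and 1617 in the control and 1497, 1421 and 1392 in the knockdown. The groups did not overlap, which held for every transcript cluster on the table. Control replicate 1 stood higher above the other 2 control arrays than they stood above the highest knockdown array. The mean was 1652 ± 77.7 and 1437 ± 54.2 (SD, n = 3), a log2 difference of -0.20 ± 0.056 (SE; 95% interval -0.33 to -0.07), and 91.3% of the table changed by more. *Morc3*, an ATPase of the same family as MORC2, had a similar log2 difference of -0.18 (95% interval -0.29 to -0.06), which did not pass.

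*Uhrf1* encodes the ubiquitin ligase that recognises hemimethylated DNA after replication and brings the maintenance methyltransferase DNMT1 to it. It was measured at 1419, 1420 and 1356 in the control and at 896, 950 and 977 in the knockdown. Both groups were tight, and the gap between them was several times the range of either. The mean fell from 1398 ± 36.7 to 941 ± 41.2 (SD, n = 3), giving a log2 fold change of -0.57 with a standard error of 0.054 and a 95% interval of -0.69 to -0.45 (adjusted p = 1.18e-05, limma), which also reaches inside the required fold. Relative to the median of the listed genes on its chromosome the log2 difference was -0.28, and the call was lost.

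*Dnmt3a* encodes a methyltransferase that places new methyl groups on DNA. Its intensity was 569, 528 and 549 in the control and 456, 483 and 469 in the knockdown. The groups stood apart, like those of every transcript cluster on the table, and by less than the distance seen for *Uhrf1*. The mean was 549 ± 20.5 and 469 ± 13.5 (SD, n = 3), 85.5% of the control, a log2 difference of -0.23 ± 0.053 (SE; 95% interval -0.34 to -0.11), and 85.8% of the table changed by more.

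*Morc2a* and *Uhrf1* were the only genes other than *Trim28* to fall, and by almost the same amount. Their promoters, from RefSeq on GRCm38.p6, are shown for that reason, each from 250 bases before to 50 bases after an annotated start. Capitals mark the E2F core (TTCCCGC or TTCGCGC or TTGCCGC or TTGGCGC on either strand) and the CCAAT box (CCAAT, or ATTGG on the other strand).
*Morc2a* first start, chr11:3649187-3649486, plus strand: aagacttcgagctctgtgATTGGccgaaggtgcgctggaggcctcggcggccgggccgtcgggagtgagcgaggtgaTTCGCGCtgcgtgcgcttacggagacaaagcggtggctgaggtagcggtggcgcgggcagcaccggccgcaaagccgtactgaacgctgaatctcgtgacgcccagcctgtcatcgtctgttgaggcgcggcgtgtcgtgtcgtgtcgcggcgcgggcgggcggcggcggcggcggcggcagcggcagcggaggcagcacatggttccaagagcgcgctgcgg
*Uhrf1* first start, chr17:56303087-56303386, plus strand: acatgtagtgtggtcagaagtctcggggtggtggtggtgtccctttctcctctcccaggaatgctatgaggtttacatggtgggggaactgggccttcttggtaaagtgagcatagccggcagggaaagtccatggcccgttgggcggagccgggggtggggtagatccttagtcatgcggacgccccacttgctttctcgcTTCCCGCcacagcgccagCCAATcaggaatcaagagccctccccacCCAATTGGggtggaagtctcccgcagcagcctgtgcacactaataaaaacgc
*Uhrf1* second start, chr17:56304063-56304362, plus strand: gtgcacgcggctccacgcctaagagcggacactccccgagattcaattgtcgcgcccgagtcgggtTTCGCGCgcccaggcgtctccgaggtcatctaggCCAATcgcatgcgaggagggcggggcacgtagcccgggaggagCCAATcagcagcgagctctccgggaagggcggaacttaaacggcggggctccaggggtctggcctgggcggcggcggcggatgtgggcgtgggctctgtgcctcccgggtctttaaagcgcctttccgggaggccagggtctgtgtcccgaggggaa
The window at the first start of *Morc2a* holds 1 E2F core and 1 CCAAT box. Its second start, chr11:3658422-3658721, is not shown because its window holds 0 of either, with 0 CpG. The windows of *Uhrf1* each hold 1 E2F core, with 3 CCAAT boxes at the first start and 2 at the second.

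RefSeq gave 15 such windows for all 8 genes. An E2F core was found in 4 of them, the 3 shown and the window of *Trim28*. It was in none of the windows of the 5 genes that did not pass, a split seen only after the values were known. As *Trim28* is the gene the shRNA targets, the split among the other genes rests on *Morc2a* and *Uhrf1* alone. The shares given below count windows and not genes. The split also rests on a narrow core. The first window of *Cbx5* holds ttggcgg and both windows of *Pphln1* hold ttcgcgg, each differing from a core only in the last base. The window of *Atf7ip* holds gcgccac, which differs only in the last base from a core on the other strand. Such near matches were not counted over all windows. The same letters are in 9.57% of 32851 mouse windows of this length. They are in 25.0% of the 4248 windows with at least 29 CpG, the median of the windows of these genes. The window of *Trim28* and the first of *Uhrf1* hold 23 and 12 CpG, under that limit. CCAAT boxes were found in windows of *Trim24*, *Atf7ip*, *Cbx5*, *Uhrf1* and *Morc2a*, in 37.4% of all windows and in 26.7% of those rich in CpG. TATAAA, searched on both strands, was in 1 window, at the second start of *Morc2a*, in 13.6% of all windows and in 2.75% of those rich in CpG. The first window of each of the 8 genes held 12 to 53 CpG, above the median of 7 over all windows. These matches are descriptions of the letters and not of bound sites.

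Set in order of change, the 8 genes ran from *Trim28* through *Morc2a*, *Uhrf1*, *Cbx5*, *Dnmt3a*, *Pphln1* and *Atf7ip* to *Trim24*. The 7 neighbouring pairs were described by the log2 ratio of the pair within each array, with no test, because the order was set by the same changes. *Morc2a* and *Uhrf1* differed in their change by 0.02, and their ratio was 0.03 to 0.20 on the control arrays and 0.13 to 0.16 on the knockdown arrays. *Dnmt3a* and *Pphln1* also differed by 0.02, with ratios of 1.56 to 1.61 and 1.56 to 1.71. The ratios of the other 5 pairs did not overlap between groups. How often this holds for other pairs of listed genes was not counted, so it is not a result about these pairs. The gap in change was 1.33 between *Trim28* and *Morc2a*, 0.42 between *Pphln1* and *Atf7ip*, and 0.12 to 0.23 for the other 3.

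Directions were uneven between chromosomes on this table, so each of the 8 was set beside the listed genes of its own chromosome. With 1 transcript cluster per gene, 49.6% of all genes were lower in the knockdown. On chromosome 7, which carries *Trim28*, 76.9% of 407 genes were lower with a median log2 difference of -0.31, and on chromosome 17, which carries *Uhrf1*, 77.6% of 232 genes were lower with a median of -0.29. *Uhrf1* differed from that median by -0.28, less than the required fold. On chromosome 11, by contrast, 55.6% of 426 genes were higher, and *Morc2a* differed by -0.78 from the median of 0.19. *Dnmt3a* was below the control on chromosome 12, where 62.3% of 162 genes were higher, and differed by -0.47 from their median of 0.24. *Atf7ip* and *Trim24* are both on chromosome 6, where 59.7% of 236 genes were higher with a median of 0.24, and they differed from it by -0.01 and 0.11. *Cbx5* and *Pphln1* are both on chromosome 15, with a median of -0.13 over 225 genes, and differed from it by -0.21 and -0.07. The part of chromosome-wide shifts in these values was not tested.

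**Figure D3:**
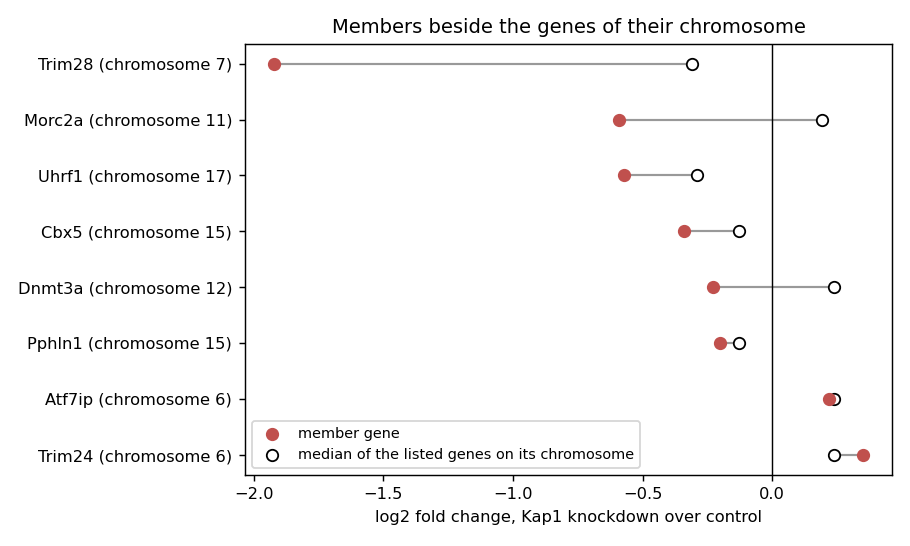
Log2 fold change of the 8 genes (red) and the median of all listed genes on the chromosome of each (open circles), with a line joining the pair. *Trim28*, *Morc2a* and *Dnmt3a* lay farthest from these medians, which come from the same selected set, and *Atf7ip* lay on that of its chromosome.

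The wider machinery was read through a list of 87 genes, the 8 included, of which 34 were on the table. Of these, 3 were called lower, the same *Trim28*, *Morc2a* and *Uhrf1*, and 1 was called higher, *Ppp1cc*. Together 11.8% of the 34 were called either way, against 32.6% of the whole table. In sign, 25 of the 34 were below the control and 9 above, with a median log2 difference of -0.28, whereas 48.7% of the table was below the control.

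*Ppp1cc* encodes the gamma catalytic subunit of protein phosphatase 1. Its 2 transcript clusters gave nearly the same values, with log2 fold changes of 0.60 and 0.61. Whether their probes read the same sequence was not tested, so they are not separate measurements. For the one of higher level the mean rose from 2074 ± 87.5 to 3145 ± 145 (SD, n = 3; adjusted p = 1.27e-05, limma), 152% of the control. By its gene identifier *Ppp1cc* lies on chromosome 5, where 87.3% of 408 genes were higher with a median log2 difference of 0.37. *Ppp1cb*, encoding the beta subunit, and *Chek2*, encoding a DNA damage kinase, lie there too and had log2 differences of 0.30 and 0.34, under the required fold. *Atm*, the kinase that phosphorylates KAP1 at DNA breaks, had -0.43 (95% interval -0.61 to -0.25), and *Zfp57* and *Zfp445*, KRAB zinc finger genes that protect imprints through KAP1, each had -0.36.

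Among readers of methylated DNA, *Zbtb38* had a log2 difference of -0.39 and *Zbtb33*, encoding Kaiso, -0.36. Among the enzymes that remove methyl groups, *Tet1*, which oxidises methylcytosine, had -0.38 from a control mean of 70.7, and *Kdm3a*, a histone H3 lysine 9 demethylase, had 0.44. None of these 4 genes passed, and the 95% interval of each reached the required fold, from -0.54 to -0.24 for *Zbtb38*, -0.50 to -0.23 for *Zbtb33*, -0.55 to -0.21 for *Tet1* and 0.24 to 0.65 for *Kdm3a*.

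The histone chaperones and remodellers were listed through 5 of 9 genes, and 0 passed. *Daxx*, which deposits histone H3.3 at heterochromatin, had a log2 difference of -0.41, *Asf1b*, an H3 and H4 chaperone, had -0.34, and *Smarcad1*, a remodeller that binds KAP1, had -0.24. *Chaf1a* and *Chaf1b* encode subunits of the same assembly factor, CAF-1, and had -0.33 (95% interval -0.45 to -0.21) and 0.27 (95% interval 0.14 to 0.40). Their signs were those of the listed genes around them. *Chaf1a* lies on chromosome 17, with a median of -0.29, and differed from it by -0.03. *Chaf1b* lies on chromosome 16, with a median of 0.21, and differed from it by 0.06.

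SUMO is the modifier through which KAP1 engages SETDB1, and 6 of 16 genes of its pathway were on the table, with 0 called. The proteases *Senp1*, *Senp6* and *Senp5*, which remove SUMO, had log2 differences of -0.36, -0.33 and -0.32. The modifiers *Sumo3* and *Sumo2* had -0.23 and -0.14, and the ligase *Pias4* had 0.44 (95% interval 0.34 to 0.55). Of other heterochromatin genes, *Lbr*, whose product ties HP1 to the nuclear envelope, had -0.43, *Smchd1*, needed on the inactive X chromosome, had -0.25, and *Cbx2*, a Polycomb reader, had -0.24, with 0 of the 3 called.

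**Figure D4:**
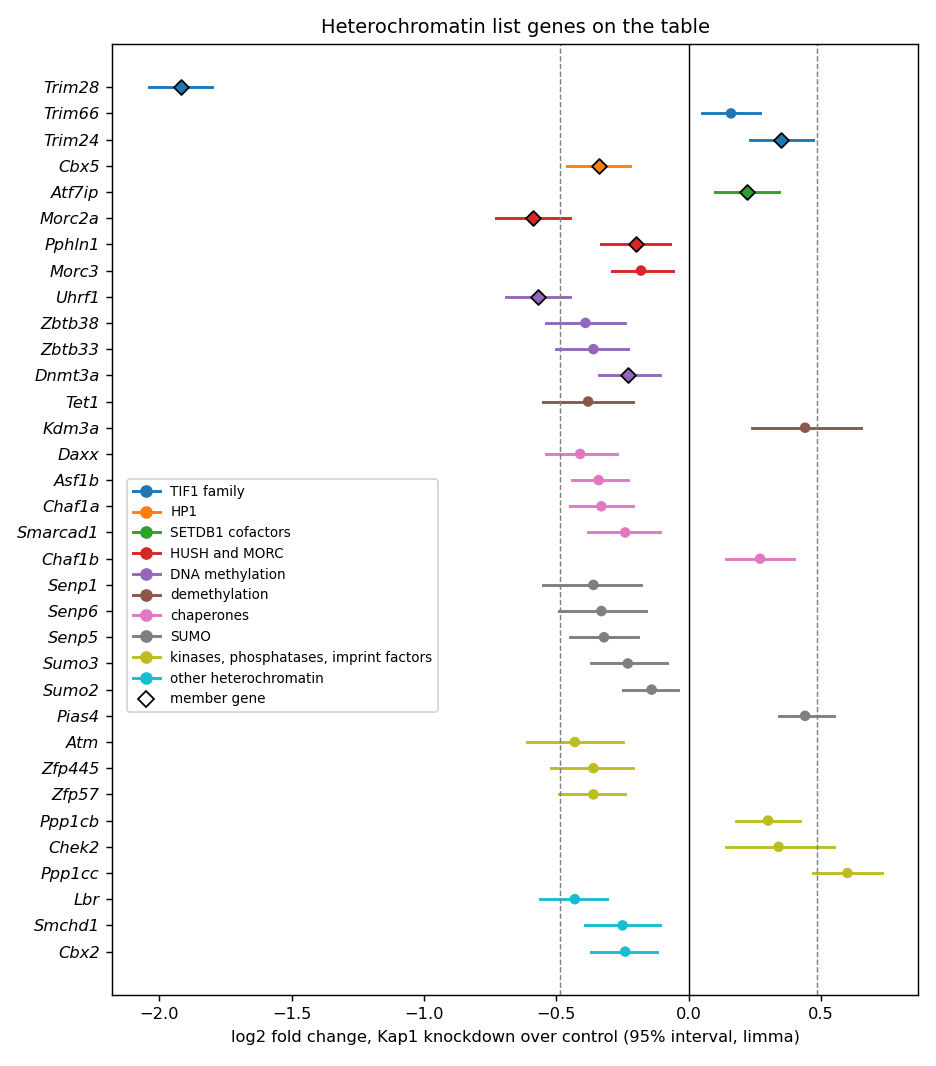
Log2 fold change with its 95% interval for the 34 list genes on the table, coloured by role, with the 8 genes described in detail as diamonds and the fold of 1.4 as dashed lines. Only *Trim28*, *Morc2a*, *Uhrf1* and *Ppp1cc* have their point outside the dashed lines, and 25 points lie below 0.

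The genes whose profile was nearest to that of *Trim28* were sought over the 6 arrays, by the root mean square difference of log2 values taken relative to the control mean of each gene. *Timp2*, an inhibitor of matrix metalloproteinases, was the nearest at 0.055, with a mean of 877 ± 15.3 in the control and 221 ± 4.04 in the knockdown (SD, n = 3) and a log2 fold change of -1.99. *Isl1*, a transcription factor of neurons and one of the sympathoadrenal markers above, followed at 0.088 with a log2 fold change of -1.83. *Serpinf1*, encoding a secreted serpin, and *Dock10*, a guanine nucleotide exchange factor, were at 0.091 each with -1.83 and -1.88, and *Tgfbi*, an extracellular matrix protein, was at 0.10 with -2.06. Such likeness over 3 arrays per group records little beyond an equal fold change.

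The call for *Trim28* held under each of the 17 alternatives of processing and sample choice, with a log2 fold change of -1.96 to -1.61. Not all of these could move that value. The stricter limits, the replicate block and the choice of transcript cluster by lowest adjusted p left it as it was. *Morc2a* ranged from -0.78 to -0.53 and *Uhrf1* from -0.60 to -0.28, the latter value being the one relative to its chromosome.

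**Figure D5:**
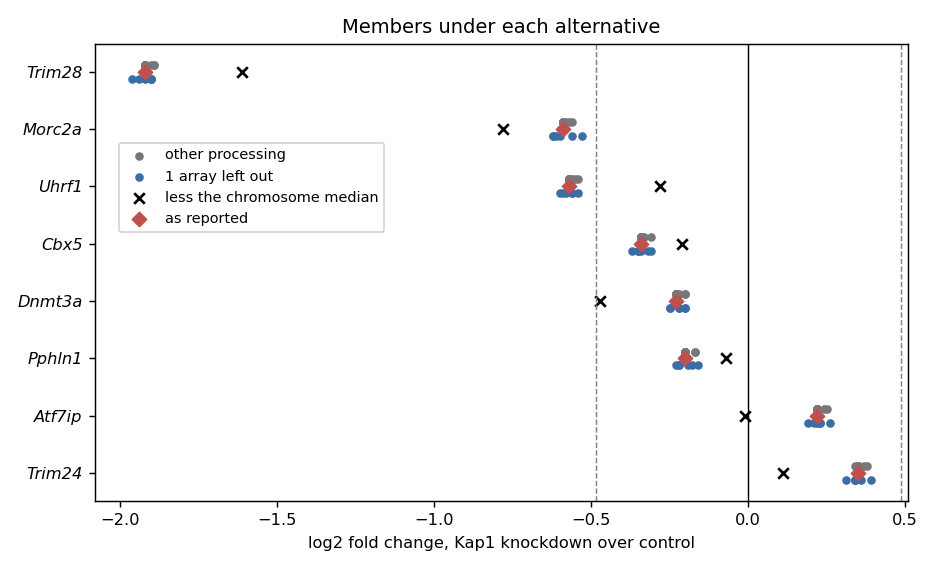
Log2 fold change of each of the 8 genes as reported (red diamonds), under other processing (grey), with 1 array left out (blue) and less the median of its chromosome (crosses), with the fold of 1.4 as dashed lines. The crosses stand away from the other points, and that of *Atf7ip* lies at -0.01.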

How the data were processed

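The authors hybridised RNA from 3 control and 3 *Kap1* knockdown samples (200 ng each), used RMA in GeneSpring for normalisation, and ran limma on the result. Intensities were deposited on a linear scale, rounded in the table used here and unrounded in a second table (largest difference 0.5). Its values were checked and are not on a log scale. The rule by which its 6951 transcript clusters were chosen, and the genome build, are not given in the sources used here. The platform annotation names 1 gene for 5733 transcript clusters, several for 384 and none for 834, and 5726 matched RefSeq (GRCm38.p6) by gene identifier, which gave chromosomes.

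From these, log2 intensities were computed and given to lmFit and eBayes (limma 3.58.1, R 4.3.3) with no block, and Benjamini-Hochberg adjustment ran over the whole table. A call needed a fold of 1.4 or more and an adjusted p no higher than 0.05. The code was first tested on simulated data. Its fitted prior (5.24 degrees of freedom) comes from a selected table, so adjusted p-values describe these arrays only. Counts used Python 3.11.15 and pandas 2.3.3.

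The 8 genes and the gene lists were chosen with earlier results of these data known. Named genes are the 8, every list gene on the table and the 5 nearest in profile to *Trim28*. Where a gene had several transcript clusters, that of highest mean level was counted. Alternatives were quantile normalization, median centring, the unrounded table, trend and robust eBayes, a pseudocount of 16, leaving out 127 dim transcript clusters (group means both under 6 in log2), a replicate block, a fold of at least 2, a limit of 0.01 on the adjusted p and leaving out each array. Subtracting the median of each chromosome was added after the data were seen. It kept the adjusted p of the main fit, and no test against the chromosome median was run.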

Additional observations from a re-analysis of the deposited data

How the results depend on the processing

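The number of the 8 genes called lower was 1 at a fold of at least 2 (*Trim28*), 2 relative to the chromosome median, where *Uhrf1* had -0.28, and 3 otherwise, and 0 were called higher under any alternative. Of the list genes, 1 was called lower at a fold of at least 2, and 4 relative to the chromosome median (*Trim28*, *Morc2a*, *Tet1*, *Senp5*). Calls relative to the chromosome median rest on the fold alone, as the adjusted p was not recomputed. Those called higher were 2 with quantile normalization (*Ppp1cc*, *Kdm3a*), 0 at a fold of at least 2, and 0 relative to the chromosome median. Leaving out 1 array at a time gave 1 to 2 list genes called higher, with *Kdm3a* added without control replicate 1, and 3 to 4 called lower, with *Atm* added without control replicate 3. *Atf7ip* turned to -0.01 relative to the chromosome median. The cause of these shifts was not tested.

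No pairing of samples by replicate number was assumed. Deviations from the group mean correlated at -0.168, -0.132 and 0.0422 for same-numbered arrays and at -0.0919 to 0.196 for the other combinations. With 3 arrays per group these values cannot show whether samples were handled in pairs. With the replicate block *Trim28* had -1.92, 3 of the 8 genes and 3 list genes were called lower and 1 list gene higher, and 1225 and 1043 transcript clusters were called lower and higher, as without it. In this balanced design a block cannot change a log2 fold change, so these equal counts say nothing about pairing. Of the 8 genes, 6 had their highest control value in control replicate 1, the array with the highest median.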
